A study of Mus musculus with 66 samples.

Results

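Molecular chaperones help other proteins to fold, and 78 of the 11513 genes in the deposited tables belong to the chaperone families examined here. They were chosen by symbol: subunits of the cytosolic chaperonin CCT, prefoldins, heat shock proteins, DNAJ proteins and BAG proteins, with Fkbp4, Stip1, Ahsa1, Hsf1 and Hsf2, and without Dnajb5. By known location or role there were 7 CCT subunits, 41 other cytosolic or nuclear members, 14 members of the endoplasmic reticulum (ER), 8 mitochondrial members, 2 heat shock factors and 6 members that were matched by name only or could not be placed. Tcp1, Cct6b, Hspa1a, Hspa1b, Hspa2 and Hspb1 were not analysed here. All 78 members passed the filter on low values in each of the 4 tables.

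The cells were 3T9-MycER mouse embryonic fibroblasts, a line that is homozygous for a floxed allele of c-myc (c-mycflox/flox) and was infected in vitro with the pBabe bleomycin MycER construct. In MycER, Myc is fused to a hormone-binding domain of the oestrogen receptor, so that 4-hydroxytamoxifen (OHT) turns the factor on. OHT was given at 400 nM for 10, 20 or 30 min or for 1, 1.5, 2, 4, 8, 12 or 16 h, and the untreated 0 min cells were the control for every time. At each of the 11 times new RNA was marked by a 10 min pulse of 4-thiouridine (4sU, 300 µM) and purified for 3 labelled libraries, and total RNA gave 3 more, so that there were 66 libraries in all. All groups carry MycER and no time course without OHT was analysed, so an effect of OHT itself or of time in culture cannot be told apart from one of MycER. Whether replicates came from different cultures is not stated in the labels. The p-values therefore reflect library-to-library spread alone, and that spread could be technical.

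Exon values of labelled RNA follow new and partly spliced transcripts, intron values of labelled RNA follow unspliced new transcripts, and exon values of total RNA follow the RNA pool of the cell. Values are the deposited numbers after scaling between libraries (scaled values), a log2 change is given ± its standard error from limma, and a member was called higher or lower at an adjusted p under 0.05 in limma. No spike-in is described, so changes are relative to the other genes of each library. In these pools of cells, more RNA per cell and more cells with the RNA cannot be told apart. A library's deposited values summed to between 46498084 and 52716124 in exons of total RNA and 10649913 and 13008655 in its introns. In labelled RNA the exon sums lay between 11619390 and 14118146, and the intron sums between 31279341 and 39258946. The values behave as rescaled numbers and not as raw reads, so read depth is unknown. The fibroblast markers Vim and S100a4 had at least 1260 and 1320 RPKM (a read density scaled by gene length and library size) in every total RNA library, and the endothelial gene Pecam1, the 1 of 4 such markers in the tables, had at most 0.146. Of 5 leukocyte markers 3 were in the tables, with at most 0.127 for Ptprc, 0.0569 for Itgam and 3.24 for Cd68, and the 4 epithelial markers listed were not analysed here. All 6 fibroblast markers in the tables, of 7 listed, were lower at 16 h in labelled exons, with a median log2 change of -0.92. Pecam1 was called higher at 16 h from its low level, with 1.37 ± 0.57 in labelled and 1.31 ± 0.51 in total exons, and Cd68 was called higher in total exons, with 0.48 ± 0.12. The part of these shifts in the chaperone results was not tested.

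CCT is a double ring in the cytosol that encloses actin, tubulin and other proteins while they fold, and prefoldin hands such proteins to it. HSP70 proteins bind unfolded stretches with the help of DNAJ proteins, which bring clients and start ATP hydrolysis, and BAG and HSP110 proteins release the bound nucleotide. HSP90 acts later, on near-native kinases and steroid receptors, and works with Stip1, Ahsa1 and Fkbp4. The ER and the mitochondrion have their own sets: Hspa5 (BiP) and Hsp90b1 (GRP94) in the ER, and Hspd1 (HSP60), Hspe1 (HSP10) and Hspa9 (mortalin) in mitochondria. Myc binds the E-box, Hsf1 binds heat shock elements, and the unfolded protein response acts through ER stress elements.

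Those 3 kinds of motif were sought on both strands of RefSeq promoter windows (GRCm38.p6), from 250 bases before to 50 bases after a gene's start. The E-box was CACGTG, the heat shock element was GAANNTTC or TTCNNGAA, its longer form was 3 alternating units of GAA and TTC, each 2 bases apart, and the ER stress element was CCAAT followed by CCACG with 9 bases between them. By Entrez identifier, 64 of the 78 members matched 81 windows. An E-box stood in 11.1% of the members' windows and in 7.15% of all 32851 windows. The heat shock element stood in 21.0% of the members' windows against 15.1% of all, and its longer form, which contains the shorter, in 7.41% against 0.603%. The 7.41% are 6 windows of 4 of the 64 members and are not separate sites. Windows of Hspd1 and Hspe1 share their matches, and Hsph1 and Dnajb6 have overlapping windows. The ER stress element stood in 3.70% against 0.119%, in the windows of Hspa5, Hsp90b1 and Dnajc3. These are matches of letters, and no binding was measured here.

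The ER stress elements are shown because 2 of these 3 genes make the most abundant ER chaperones and changed little in exons, and the longer heat shock element is shown because Hspd1 and Hspe1 share it and rose together. Sequences run 5′ to 3′ on the strand of the named gene, with motif letters in capitals, and stretches that touch an annotated exon are limited to 30 bases.
Hspa5, chr2:34772020-34772048, plus strand: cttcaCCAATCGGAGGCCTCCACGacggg
Hsp90b1, chr10:86705633-86705661, minus strand: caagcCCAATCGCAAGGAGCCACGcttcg
Hsp90b1, chr10:86705528-86705556, minus strand: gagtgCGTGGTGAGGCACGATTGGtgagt
Dnajc3, chr14:118937797-118937875, plus strand: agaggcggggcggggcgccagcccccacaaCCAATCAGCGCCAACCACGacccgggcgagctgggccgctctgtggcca
Hspe1, chr1:55088053-55088082, plus strand: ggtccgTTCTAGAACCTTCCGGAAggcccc
The Hspe1 stretch lies 89 to 72 bases before the start of Hspe1 and is also part of an Hspd1 window, since both genes start there on opposite strands. Hsph1 and Dnajb6 were the other members with the longer heat shock element.

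E-box stretches are shown for members on both sides of the results, of which Dnajc16, Hsph1, Hspd1 and Dnajc1 were higher in labelled exons at 16 h and Hspbap1 was lower.
Dnajc16, chr4:141790705-141790734, minus strand: gtctttaagtgaCACGTGactgccccgggc
Hspd1, chr1:55088306-55088335, minus strand: ggccggctgggaCACGTGaaaaggccgcgc
Hsph1, chr5:149636317-149636346, minus strand: aagcggaagtggCACGTGgaggcgccggtg
Dnajc1, chr2:18392920-18392985, minus strand: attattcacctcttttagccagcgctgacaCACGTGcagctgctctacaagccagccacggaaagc
Hspbap1, chr16:35770264-35770385, plus strand: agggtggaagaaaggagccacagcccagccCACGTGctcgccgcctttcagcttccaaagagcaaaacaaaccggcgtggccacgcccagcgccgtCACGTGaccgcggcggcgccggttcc
The other members with an E-box were Dnajb9, Dnajc8 and Hsf2, and none of these was called at 16 h in labelled exons. Fkbp4, 1 of 3 members called from 10 min in labelled introns, has no CACGTG in its window, which says only that these letters are not there. Its heat shock element starts 151 bases before the gene's start.
Fkbp4, chr6:128438789-128438818, minus strand: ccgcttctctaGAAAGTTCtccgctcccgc

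**Figure D1:**
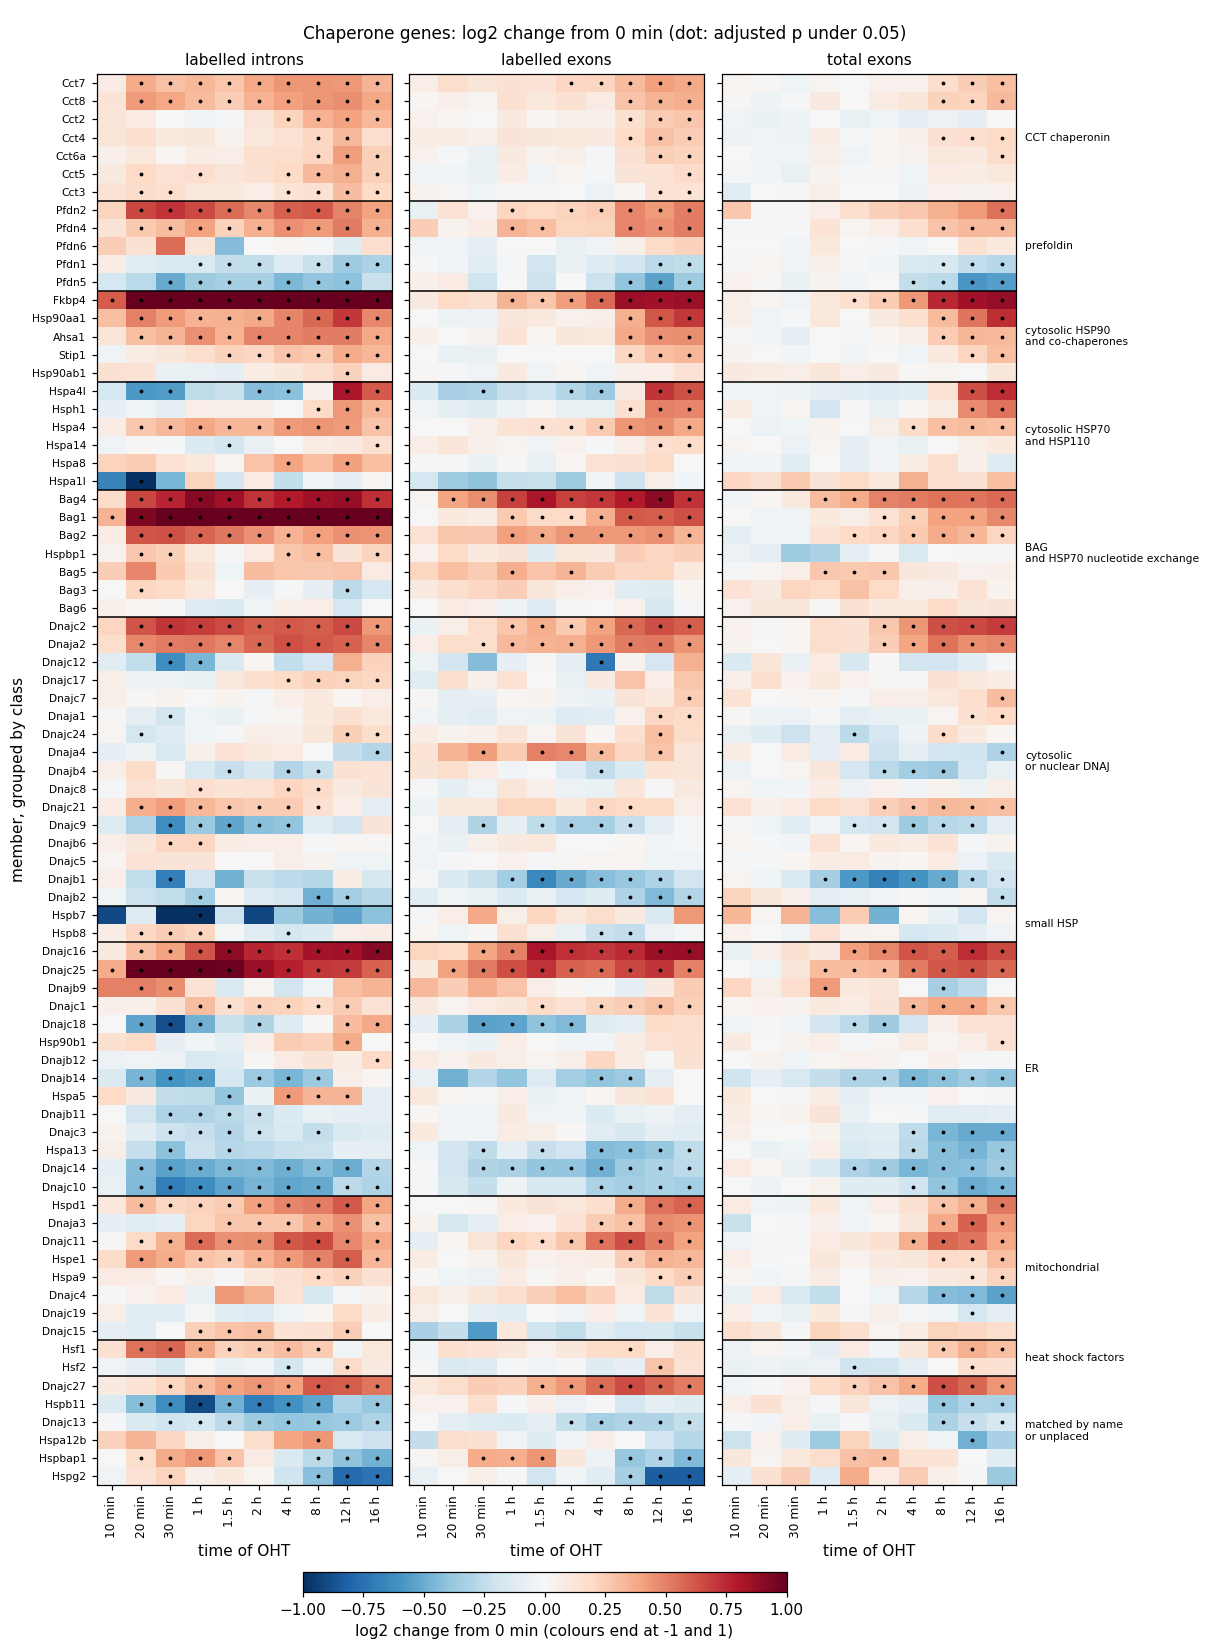
Log2 change from 0 min of the 78 members (rows, grouped by class) at 10 times of OHT (columns) in labelled introns, labelled exons and total exons. Red is higher, blue is lower, colours end at -1 and 1, and a dot marks an adjusted p under 0.05; the rows of Fkbp4 and Bag1 are dark red in introns from 20 min.

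The course of all members asked when chaperone genes changed after OHT and in which direction. The first calls came in the introns of labelled RNA at 10 min, where Fkbp4, Bag1 and Dnajc25 were the 3 of 78 members called higher, beside 0.521% of all genes, with 0% of genes called lower. At 20 min, 27 of 78 members were higher and 8 lower in labelled introns, beside 16.5% and 13.6% of all genes. In labelled exons at 1 h, 13 members were higher and 3 lower, beside 13.7% and 9.65% of all genes. With library sums in place of the scaling used here, the 1 h split became 10 higher and 6 lower, and all genes split 1230 to 1575 in place of 1575 to 1109.

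By 4 h the counts in labelled exons were 17 higher and 11 lower, close to the shares of 19.6% and 18.8% of all genes. At 16 h, 33 of 78 members were higher and 9 lower, beside 22.7% and 21.6% of all genes. The median log2 change of the members was 0.18 at 16 h and that of all genes was 0.015. Total exons had 13 higher and 9 lower members at 4 h (19.5% and 19.9% of all genes; 15 and 13 with the replicate number as a block) and 32 higher and 13 lower at 16 h (26.3% and 29.6%). Labelled introns had 32 and 11 at 4 h (24.9% in each direction) and 33 and 8 at 16 h (25.7% and 22.7%), and total introns had 26 and 9 at 16 h (21.4% and 19.9%). With library sums the labelled intron split at 16 h was 44 and 5, and the median change of all genes rose from 0.029 to 0.13. Without further scaling the 4 h split was 12 higher and 12 lower in labelled exons and 12 and 14 in total exons. Counts of all genes without further scaling are not given here, so these splits cannot be read against them.

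The step from 4 h to 16 h was tested as its own contrast in labelled exons, and 24 members were higher at 16 h and 2 lower, beside 9.94% and 12.1% of all genes. Both lower members, Hspg2 (-0.71 ± 0.091) and Hspbap1 (-0.39 ± 0.088), were matched by name. Among the higher members with labelled exon values above 1000, the largest differences were those of Hspa4l (1.00 ± 0.10), Hsp90aa1 (0.65 ± 0.092), Hsph1 (0.57 ± 0.065) and Hspd1 (0.42 ± 0.073). Among members of any level the largest difference was 1.07, that of Dnajc12, whose values were low. With library sums the split was 37 higher and 2 lower, and all genes split 1510 to 1232. Over the whole course, 54 of 78 members varied in labelled exons and 56 in total exons by a moderated F test of limma, beside 64.5% and 70.8% of all genes, which are shares close to those of the members.

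**Figure D2:**
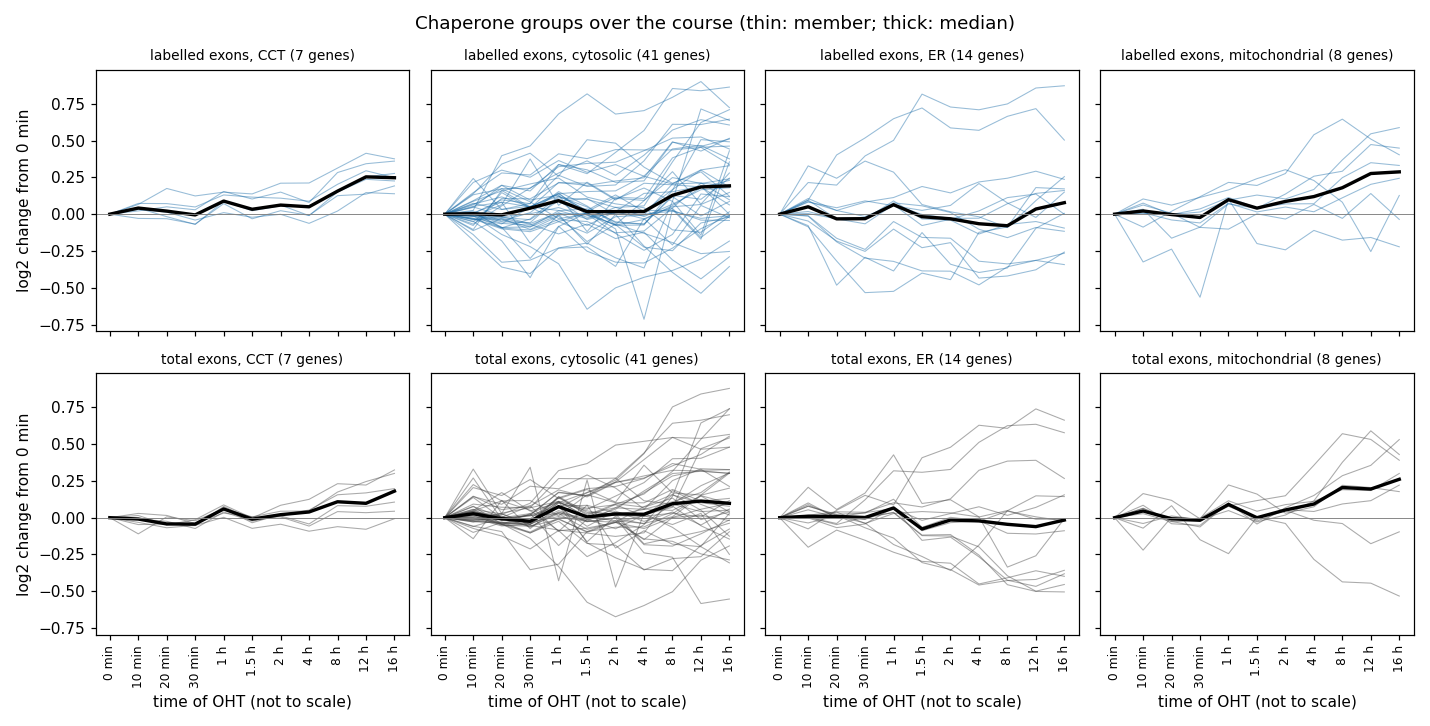
Log2 change from 0 min (vertical axis) over the 11 times (horizontal axis, not to scale) in labelled exons (top) and total exons (bottom) for the CCT, cytosolic, ER and mitochondrial members. Thin lines are members and the thick line is their median; at 16 h in labelled exons the medians were 0.25 for CCT, 0.19 for cytosolic, 0.078 for ER and 0.29 for mitochondrial members.

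Counts by location are given as descriptions, to be read against the shares of all genes at 16 h, which were 22.7% higher and 21.6% lower in labelled exons and 26.3% and 29.6% in total exons. In labelled exons at 16 h all 7 CCT subunits were higher, 17 of 41 other cytosolic members were higher and 3 lower, 5 of 8 mitochondrial members were higher and none lower, and 3 of 14 ER members were higher and 3 lower, which for the ER is close to the shares of all genes. Neither heat shock factor was called, and of the 6 other members 1 was higher and 3 were lower. In total exons the same groups had 4 and 0, 17 and 5, 5 and 1, and 4 and 5 members higher and lower. The median log2 change in total exons was 0.18 for CCT, 0.097 for cytosolic, 0.26 for mitochondrial and -0.016 for ER members. None of these differences between locations was tested.

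Among members, levels per length at 0 min spanned a wide range in total exons. Hsp90ab1, the constitutive cytosolic HSP90, was first with 1453 ± 116 RPKM (SD, n = 3), followed by the constitutive HSP70 Hspa8 with 904 ± 52.2 RPKM and Cct5 with 716 ± 42.9 RPKM. The neighbours Hsp90aa1 (569.7 ± 46.2 RPKM) and Hspa5 (522 ± 26.3 RPKM) differed by little more than the SD of Hsp90aa1. At the low end stood the small heat shock protein gene Hspb7 with 0.142 ± 0.00917 RPKM and Hspa1l with 0.522 ± 0.0374 RPKM, so little can be said of their changes.

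The CCT subunits rose by little in labelled exons. Cct7 was called from 2 h and the other 6 subunits from 8 h or later. Cct7 (eta subunit) had labelled exon values of 7405, 6625 and 6809.6 at 0 min and 9558, 8488 and 8996 at 16 h, groups that did not overlap, for a log2 change of 0.38 ± 0.068 (adjusted p = 2.36e-05). Cct8 (theta subunit) went from 6240.1, 7069 and 6702 to 8304, 8369.9 and 9004, a log2 change of 0.36 ± 0.066 (adjusted p = 2.54e-05). In both genes each 16 h library was above each 0 min library. Annotated exons of Cct7 share 214 bases with 1700040I03Rik and those of Cct8 share 193 bases with Usp16, both oppositely oriented. At 4 h the change of Cct7 was 0.21 ± 0.068 (adjusted p = 0.0132). That call was lost without 0 min replicate 2 (adjusted p = 0.0689) and without 4 h replicate 1 (adjusted p = 0.067). It was also lost without further scaling (adjusted p = 0.151) and with RPKM values, likewise not scaled further (adjusted p = 0.139). The introns of both were called from 20 min: Cct8 had labelled intron values of 3854, 3884 and 3516 at 0 min and 5097, 4752 and 5257 at 20 min, a log2 change of 0.42 ± 0.066 (adjusted p = 6.58e-06). Cct7 introns had a log2 change of 0.37 ± 0.056 at 20 min (adjusted p = 4.52e-06). Labelled introns of Cct3 and Cct5 were also first called higher at 20 min, each at 6 times in all. Those of Cct2 were first called at 4 h and those of Cct4 and Cct6a at 8 h. The Cct2 call was lost without 0 min replicate 1 (adjusted p = 0.0513) or 3 (adjusted p = 0.0799), or 4 h replicate 2 (adjusted p = 0.115). In total introns Cct3 and Cct4 were called at no time, and Cct2, Cct5 and Cct6a at 8 h only.

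Of the other CCT subunits, Cct2 (beta) had labelled exon values of 6982, 7069 and 6798 at 0 min and 8611, 8018 and 8639 at 16 h, a log2 change of 0.28 ± 0.059 (adjusted p = 0.00023). Its total exon values were 43549.9, 39719.6 and 42573 at 0 min and 41141, 40657 and 43397 at 16 h, which overlapped, with a log2 change of -0.0069 ± 0.072. The difference between its labelled and total change was 0.28 ± 0.092 and did not pass the test (adjusted p = 0.252). Cct4 (delta) changed by 0.25 ± 0.067 in labelled and 0.20 ± 0.052 in total exons, both called. The labelled changes of Cct3 (0.14), Cct5 (0.19) and Cct6a (0.23) were called in all libraries but not in some subsets. For Cct3 the adjusted p was 0.237 without 0 min replicate 1, 0.0764 without 0 min replicate 3, 0.0993 without 16 h replicate 1 and 0.115 without 16 h replicate 3. For Cct5 it was 0.165 and 0.0618 without 0 min replicate 2 or 3, and 0.146 and 0.155 without 16 h replicate 1 or 3. Cct6a was not called without 16 h replicate 3 (adjusted p = 0.0574). Without further scaling, Cct3, Cct5 and Cct6a had adjusted p of 0.154, 0.173 and 0.0541. In total exons Cct7 and Cct8 rose by 0.30 and 0.32, and Cct6a by 0.18, which was not called without 0 min replicate 2 (adjusted p = 0.0528). Cct3 and Cct5 had 0.044 ± 0.074 and 0.11 ± 0.053 there and were not called.

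Prefoldin subunits split into rises and falls. Pfdn2 had labelled exon values of 406, 465 and 463 at 0 min and 593, 632 and 684 at 16 h, a log2 change of 0.52 ± 0.081 (adjusted p = 2.13e-06), and its introns had already changed by 0.67 ± 0.062 at 20 min. Annotated exons of Pfdn2 share 535 bases with the oppositely oriented Klhdc9. Pfdn4 rose by 0.51 ± 0.11 in labelled and 0.33 ± 0.073 in total exons. Pfdn5, also known as MM-1 and described as a Myc-binding protein, had total exon values of 3943, 3914 and 3777 at 0 min and 2589, 2741 and 2602 at 16 h, groups that did not overlap, a log2 change of -0.55 ± 0.047 (adjusted p = 4.89e-11). Pfdn1 changed by -0.25 ± 0.089 in labelled and -0.29 ± 0.059 in total exons, both called lower, but the labelled call was lost without 0 min replicate 1 (adjusted p = 0.0564) or 16 h replicate 2 (adjusted p = 0.148). The change of Pfdn2 in total exons, 0.55 ± 0.19, was not called without 0 min replicate 2 (adjusted p = 0.0704) or 16 h replicate 3 (adjusted p = 0.147). Pfdn6 was not called, with 0.23 ± 0.11 in labelled exons. Of 12 listed genes of CCT and tubulin folding outside the chosen families, 10 were in the tables. Their median log2 change at 16 h in labelled exons was -0.0036, with 2 higher and 3 lower, beside 22.7% and 21.6% of all genes. In total exons, beside 26.3% and 29.6% of all genes, 2 of the 10 were higher and 5 lower. The smallest p-values were those of Pdrg1 (0.80 ± 0.081) and Uri1 (0.50 ± 0.094), subunits of a prefoldin-like complex, and of Pdcl3 (-0.58 ± 0.099), a phosducin-like partner of CCT.

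Fkbp4 (Entrez 14228, chr6:128379753-128388695 in mm9, minus strand), a prolyl isomerase that joins HSP90 to steroid receptors, was among the first members to move and had the largest total RNA change of all members. Its labelled intron values were 715, 636 and 622 at 0 min, 1007, 967 and 1027 at 10 min and 1679, 1567 and 1559.5 at 20 min. Each later group lay wholly above the one before it, and the log2 change was 0.61 ± 0.072 at 10 min (adjusted p = 9.65e-06) and 1.28 ± 0.072 at 20 min (adjusted p = 1.02e-14). Labelled exons followed from 1 h (0.34 ± 0.078, adjusted p = 0.00144) and total exons from 1.5 h (0.17 ± 0.049, adjusted p = 0.0131). At 16 h the total exon values were 41001, 42498 and 46353 against 23304, 23479 and 23769 at 0 min, a log2 change of 0.88 ± 0.049 (adjusted p = 6.56e-15). The labelled exon change at 16 h was 0.86 ± 0.078.

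Hsp90aa1 (Entrez 15519, chr12:111928815-111940938), the inducible cytosolic HSP90, rose late. Labelled exon values were 20369, 20520.2 and 19865 at 0 min, 21647, 19796 and 21779 at 4 h and 32307, 31769 and 35407 at 16 h. The 4 h libraries were close to those of 0 min and all 16 h libraries were above both, with a log2 difference of 0.65 ± 0.092 between 16 h and 4 h (adjusted p = 1.45e-06). Its total exon change was 0.74 ± 0.071 at 16 h, and its introns had been called from 20 min (0.51 ± 0.096). Hsp90ab1, by contrast in level the more abundant gene, had 34003, 31488 and 33042 at 0 min and 36923, 34209.6 and 38074 at 16 h, a log2 change of 0.15 ± 0.09 that was not called (adjusted p = 0.19).

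The HSP90 helpers Stip1, which links HSP70 to HSP90, and Ahsa1, which speeds ATP hydrolysis by HSP90, also rose, in labelled exons from 8 h. Labelled introns of Ahsa1 were called from 20 min and those of Stip1 from 1.5 h. In total exons Ahsa1 was first called at 8 h and Stip1 at 12 h. Stip1 had labelled exon values of 3711, 3753 and 3756 at 0 min and 4708, 4585 and 4807 at 16 h, a log2 change of 0.33 ± 0.053 (adjusted p = 3.27e-06). Ahsa1 went from 1478, 1466 and 1566 to 2003, 2093 and 2118, a log2 change of 0.46 ± 0.075 (adjusted p = 4.04e-06). The groups of both genes did not overlap, and the total exon changes were 0.30 and 0.33. Of 17 listed HSP90 partners outside the chosen families, 8 were higher and 0 lower at 16 h in labelled exons. The shares of all genes there were 22.7% and 21.6%, and the median log2 change was 0.17 for the partners and 0.015 over all genes. In total exons, beside 26.3% and 29.6% of all genes, 9 of the partners were higher and 2 lower. Among them Ruvbl1, a subunit of the R2TP complex that works with HSP90, had a log2 change of 1.09 ± 0.071, Ruvbl2, its partner subunit, 0.62 ± 0.083, and Ppid, an HSP90-binding cyclophilin, 0.47 ± 0.063.

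**Figure D3:**
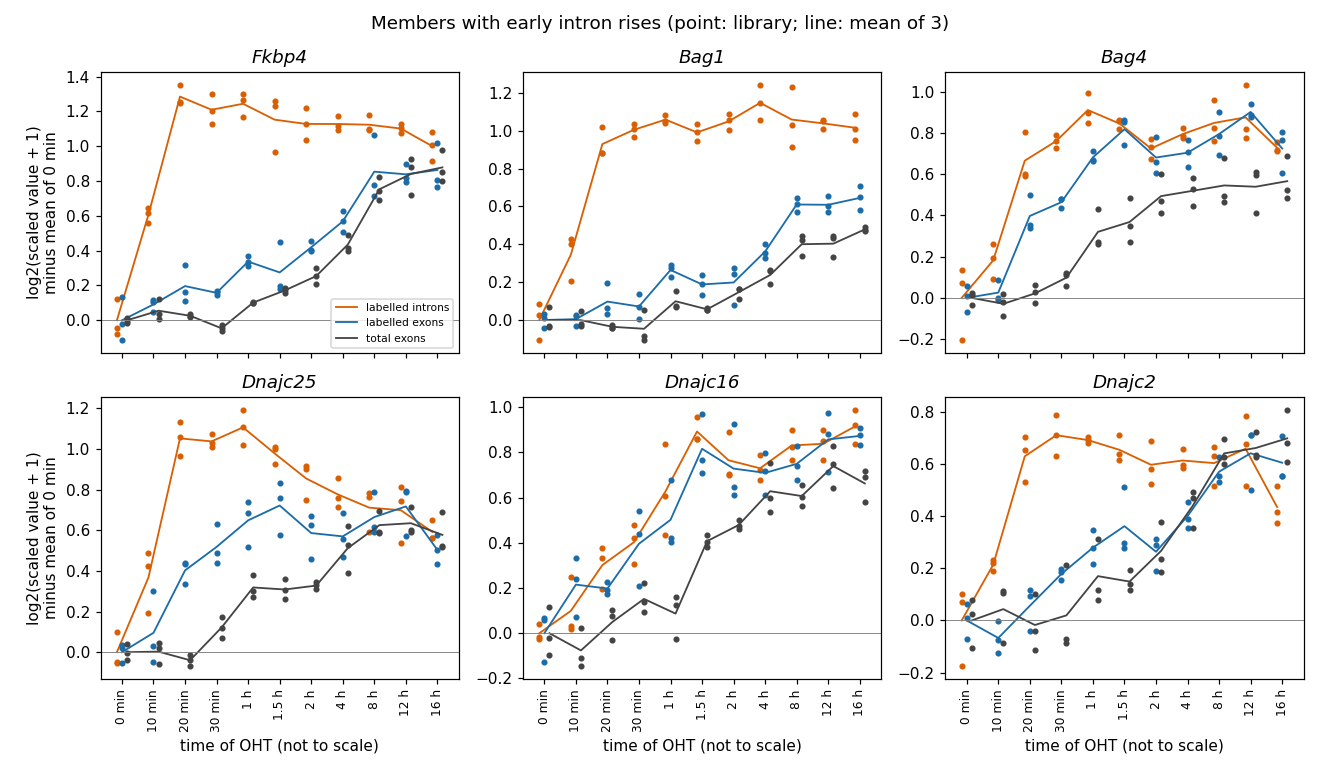
Log2(scaled value + 1) minus the mean of 0 min (vertical axis) over the 11 times (horizontal axis, not to scale) for Fkbp4, Bag1, Bag4, Dnajc25, Dnajc16 and Dnajc2. Points are libraries and lines are means of 3 in labelled introns, labelled exons and total exons; intron points of Fkbp4 and Bag1 stand above their exon points at 20 and 30 min.

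Among the nucleotide exchange factors of HSP70, Bag1 and Bag4 rose early and stayed high. Bag1 had labelled intron values of 854, 888 and 779 at 0 min, 968, 1108 and 1129 at 10 min and 1550.1, 1549 and 1703 at 20 min, a log2 change of 0.93 ± 0.072 at 20 min. In labelled exons its values were 1503, 1446 and 1526 at 0 min and 2433, 2232 and 2339 at 16 h, a log2 change of 0.65 ± 0.059 (adjusted p = 3.29e-11). Bag4, also known as SODD, a silencer of death receptors, was called in labelled exons from 20 min. Its labelled exon values at 16 h were 1333, 1527 and 1487 against 882, 911 and 834 at 0 min, groups that did not overlap, with a log2 change of 0.72 ± 0.066 (adjusted p = 2.92e-11). Annotated exons of Bag4 share 1042 bases with the oppositely oriented Gm17484, and whether counting used strand is not given in the sources used here. Bag2, a co-chaperone that blocks the ubiquitin ligase CHIP, rose by 0.41 ± 0.11 at 1 h and 0.34 ± 0.11 at 16 h in labelled exons. Without 0 min replicate 3 neither call held (adjusted p = 0.0762 and 0.134), and without 16 h replicate 2 the 16 h call was lost (adjusted p = 0.0697), while in total exons it rose by 0.21 ± 0.067. Bag3 and Bag6 were not called at 16 h, with 0.016 ± 0.096 and -0.015 ± 0.082. Bag5 was called at 1 h only among the 3 times of the main labelled exon comparisons (0.36 ± 0.11), and that call was lost without 0 min replicate 2 (adjusted p = 0.0979), 1 h replicate 1 (adjusted p = 0.119) or 1 h replicate 2 (adjusted p = 0.0693). Hspbp1, another exchange factor, changed by 0.24 ± 0.14 at 16 h and was not called.

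HSP70 and HSP110 genes of the cytosol took different courses. Hspa8, the most abundant of them, had labelled exon values of 31809, 27002 and 28547 at 0 min and 32906, 27369 and 27129.7 at 16 h, which overlapped (log2 change -0.0017 ± 0.092, adjusted p = 0.99). Hspa4, an HSP110, rose from 1.5 h and reached 0.38 ± 0.058 at 16 h in labelled and 0.30 ± 0.063 in total exons. Hsph1, another HSP110, had 6899, 6699 and 6636 at 0 min and 9625, 9617 and 9211 at 16 h, a log2 change of 0.49 ± 0.065 (adjusted p = 9.23e-08) with -0.074 ± 0.065 at 4 h. In total exons Hsph1 changed by 0.54 ± 0.13 at 16 h. Hspa14, a ribosome-bound HSP70, was called at 16 h with 0.18 ± 0.058 in labelled exons, a call that was lost without 0 min replicate 1 (adjusted p = 0.0718) or 3 (adjusted p = 0.0507). Hspa1l had 40.6, 52.4 and 55.5 at 0 min, values so low that its change of -0.025 ± 0.28 says little.

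Hspa4l (Entrez 18415, chr3:40548417-40600025), a relative of Hspa4 known from osmotic stress and testis, first fell and then rose. Its labelled exon values were 3613, 3534 and 3411 at 0 min, 3272, 2364 and 2633 at 4 h and 5418, 5329.8 and 5670.1 at 16 h, so that the 3 groups followed each other without overlap, low at 4 h and high at 16 h. The log2 change was -0.37 ± 0.10 at 4 h (adjusted p = 0.00398) and 0.64 ± 0.10 at 16 h (adjusted p = 2.57e-06). Without 4 h replicate 2, the lowest library of its group, the 4 h call was lost (adjusted p = 0.0581). Labelled introns were lower already at 20 min (-0.58 ± 0.11, adjusted p = 0.000204). Total exons did not pass the test at 4 h (-0.10 ± 0.082) and were higher at 16 h by 0.74 ± 0.082 (adjusted p = 8.6e-09).

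**Figure D4:**
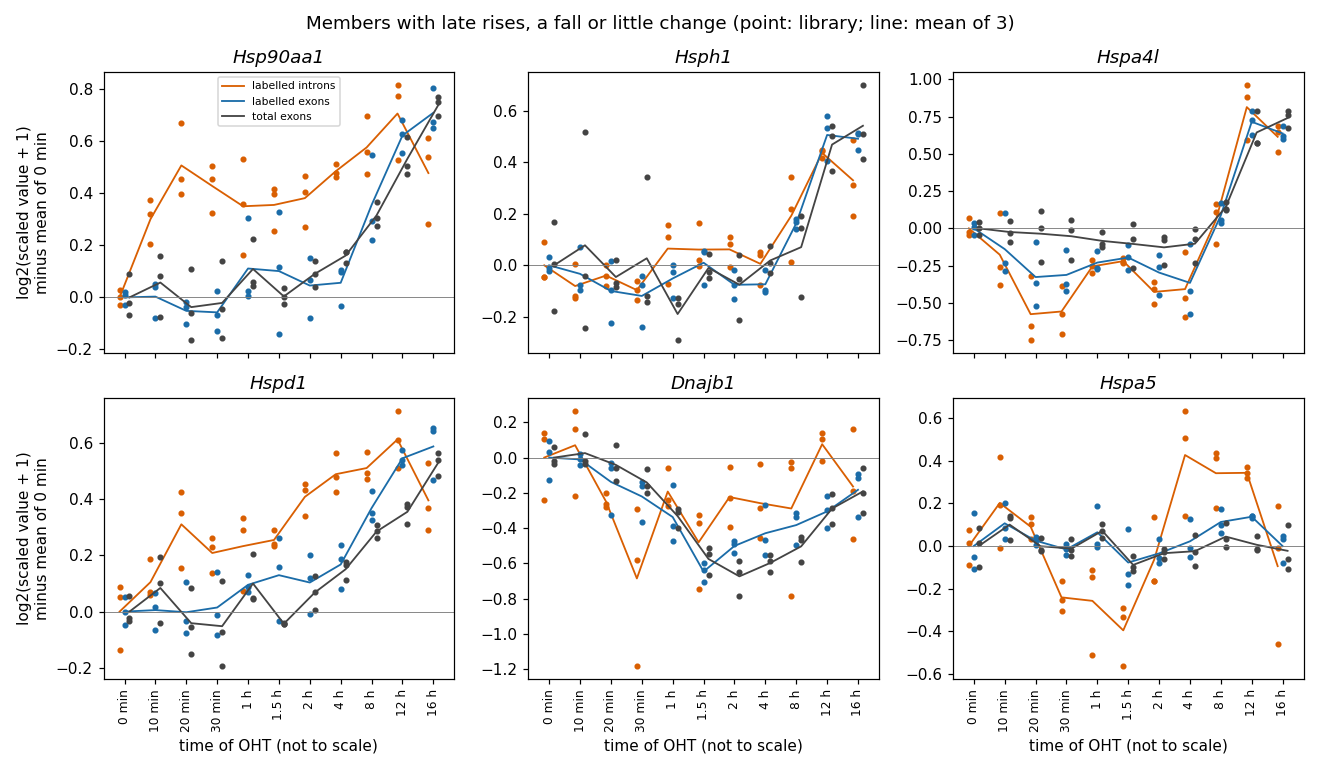
Log2(scaled value + 1) minus the mean of 0 min (vertical axis) over the 11 times (horizontal axis, not to scale) for Hsp90aa1, Hsph1, Hspa4l, Hspd1, Dnajb1 and Hspa5. Points are libraries and lines are means of 3 in labelled introns, labelled exons and total exons; Hsp90aa1, Hsph1, Hspa4l and Hspd1 exon points rise from 8 or 12 h, Dnajb1 dips between 1 and 12 h, and Hspa5 exon points stay near 0.

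Of the 16 cytosolic or nuclear DNAJ members, 4 were higher and 1 lower at 16 h in labelled exons, where 22.7% of all genes were higher and 21.6% lower. Dnajc2 (MPP11), which sits at the ribosome's exit tunnel, had 2643, 2749 and 2500.2 at 0 min and 3860.2, 3857 and 4301 at 16 h, a log2 change of 0.61 ± 0.067 (adjusted p = 2.7e-09). Dnaja2, a partner of Hspa8, went from 3597, 3556 and 3358 to 4712, 4645 and 4926, a log2 change of 0.44 ± 0.053 (adjusted p = 1.49e-08). Neither gene's groups overlapped. In total exons they rose by 0.70 ± 0.078 and 0.48 ± 0.059. Dnajc7 (0.24 ± 0.063), a J protein of the HSP90 cycle, and Dnaja1 (0.19 ± 0.06) were the other 2 that rose, and Dnaja1 was not called without further scaling (adjusted p = 0.0681). Dnajb2 was the lower one at -0.29 ± 0.11, a call that was lost without 0 min replicate 3 (adjusted p = 0.126), 16 h replicate 1 (adjusted p = 0.0941) or 16 h replicate 3 (adjusted p = 0.0675). Dnajc21, which takes part in ribosome assembly, was higher in total exons by 0.30 ± 0.076 with 0.063 ± 0.082 in labelled exons, where it was not called. Dnajb6, which has the longer heat shock element, changed by -0.01 ± 0.062 and was not called. Dnaja4, Dnajc5, Dnajc8, Dnajc12, Dnajc17 and Dnajc24 were not called there either, with log2 changes of 0.12, -0.043, 0.086, 0.36, 0.28 and 0.18. Dnaja4 had been called higher in labelled exons at 5 times, first at 30 min. It was called lower at 16 h in total exons and in labelled introns, and both calls were lost without some single libraries. Dnajc12 was called lower in labelled exons at 4 h, a call lost without any 1 of the 0 min libraries.

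Dnajb1 (HSP40, the classic heat-inducible partner of HSP70) fell for most of the course. Its total exon values were 3095, 3126 and 3302 at 0 min, 1842, 2116 and 2020.2 at 2 h and 3047, 2761 and 2548 at 16 h, a log2 change of -0.67 ± 0.07 at 2 h (adjusted p = 1.88e-08). All 2 h libraries lay far below those of 0 min, and at 16 h the change was -0.19 ± 0.07, a call that was lost without 0 min replicate 3 (adjusted p = 0.0833) or 16 h replicate 3 (adjusted p = 0.153). Labelled exons were lower at 4 h, with a log2 change of -0.43 ± 0.093 (adjusted p = 0.000391) and at 16 h were no longer called (-0.18 ± 0.093, adjusted p = 0.113). Dnajc9, a histone chaperone, and Dnajb4 followed a like course: in total exons at 4 h they changed by -0.36 ± 0.045 and -0.35 ± 0.096, both called, and at 16 h by -0.096 ± 0.045 and -0.077 ± 0.096, neither called.

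The main ER chaperones changed little. Hspa5 had labelled exon values of 13593, 16295 and 14122 at 0 min and 15111, 14943 and 13836 at 16 h, which overlapped, with a log2 change of -0.00058 ± 0.072 in labelled and -0.022 ± 0.053 in total exons, neither called. With library sums both values were above 0 (0.018 and 0.014). Its introns were less steady: labelled intron values were 653, 732 and 703 at 0 min, 568, 552 and 471 at 1.5 h and 765, 1079.5 and 987 at 4 h, low at 1.5 h and high at 4 h. The log2 change was -0.39 ± 0.13 at 1.5 h (adjusted p = 0.017), 0.43 ± 0.13 at 4 h (adjusted p = 0.00893) and -0.094 ± 0.13 at 16 h (adjusted p = 0.592), and the 4 h call was lost without 4 h replicate 2 (adjusted p = 0.0756). Hsp90b1 changed by 0.16 ± 0.084 in labelled exons (adjusted p = 0.12) and by 0.16 ± 0.057 in total exons, where the call was lost without 0 min replicate 3 (adjusted p = 0.115), 16 h replicate 2 (adjusted p = 0.0776) or 16 h replicate 3 (adjusted p = 0.0524). With library sums its labelled change was called (0.18, adjusted p = 0.0403). The third gene with an ER stress element, Dnajc3 (P58IPK, an inhibitor of the stress kinase PERK), had total exon values of 10051, 10814 and 9163 at 0 min and 6892, 7698 and 6574 at 16 h, groups that did not overlap, for a log2 change of -0.50 ± 0.074 (adjusted p = 1.31e-06). Its labelled exon change was -0.12 ± 0.073 and was not called (adjusted p = 0.203), while its labelled introns were lower at 30 min, with -0.21 ± 0.084.

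Other ER members moved further, in both directions. Dnajc16 had labelled exon values of 296, 259.8 and 298 at 0 min and 506, 523 and 534 at 16 h, a log2 change of 0.87 ± 0.10 (adjusted p = 6.93e-09), and its total exon change was 0.66 ± 0.068. Dnajc25 was called from 10 min in labelled introns, where its values were 1783, 1987 and 1794 at 0 min and 4056, 3620.3 and 3860.4 at 20 min, a log2 change of 1.05 ± 0.075 (adjusted p = 2e-12). At 16 h it was higher by 0.50 ± 0.091 in labelled and 0.58 ± 0.058 in total exons, and its exons share 348 bases with Gm20503 on the same strand. Dnajc10 (ERdj5), a disulfide reductase that helps to clear misfolded proteins, had total exon values of 14892, 15037 and 14239 at 0 min and 10439.8, 11548 and 10289.8 at 16 h, groups that did not overlap, a log2 change of -0.45 ± 0.048 (adjusted p = 3.67e-09). Its labelled introns were lower from 20 min, with -0.44 ± 0.068 at 20 min and -0.69 ± 0.068 at 30 min. Hspa13 (STCH) and Dnajc14 were the other lower ER members in labelled exons at 16 h, with -0.26 ± 0.078 and -0.27 ± 0.069. Dnajc1 was higher by 0.24 ± 0.061. Dnajb9 (ERdj4), Dnajb11 (ERdj3) and Dnajb12 were not called, with 0.25 ± 0.14, -0.095 ± 0.077 and 0.15 ± 0.10.

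Introns of Dnajc18 and Dnajb14, both J proteins placed with the ER, fell early and were no longer lower at 16 h. Dnajc18 introns had values of 648, 684 and 807 at 0 min and 395, 435 and 334 at 30 min, a log2 change of -0.88 ± 0.11, and at 16 h they were higher than at 0 min by 0.38 ± 0.11. Its labelled exons were called lower at 1 h (-0.52 ± 0.11) and not called at 16 h (0.17 ± 0.11). Dnajb14 introns changed by -0.60 ± 0.12 at 30 min and 0.018 ± 0.12 at 16 h, of which the first was called, and its total exons stayed lower at 16 h (-0.40 ± 0.089). Of 20 listed ER folding genes outside the chosen families, 5 were higher and 3 lower in labelled exons at 16 h, with a median log2 change of -0.073, and in total exons 5 were higher and 9 lower, with a median of -0.12. These stand beside 22.7% and 21.6% of all genes in labelled and 26.3% and 29.6% in total exons. The smallest p-values among them were those of Pdia5 (0.84 ± 0.096) and Ero1l (0.76 ± 0.089), which take part in disulfide bond formation, and Calu (-0.47 ± 0.066), a calcium-binding protein.

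In mitochondria, the HSP60 and HSP10 pair rose together. Hspd1 (Entrez 15510, chr1:55134679-55145087) and Hspe1 (Entrez 15528, chr1:55144976-55148151) lie head to head, on the minus and the plus strand, and their annotated exons share 112 bases. Hspd1 had labelled exon values of 14221, 13709.7 and 13266 at 0 min and 21446, 18976 and 21592 at 16 h, a log2 change of 0.59 ± 0.073 (adjusted p = 3.23e-08). Hspe1 went from 3399, 3832 and 3675 to 4693, 4589 and 4423, a log2 change of 0.33 ± 0.073 (adjusted p = 0.000296). Neither gene's groups overlapped. Both were called in labelled introns from 20 min, by 0.31 ± 0.075 and 0.43 ± 0.10, and in labelled and total exons from 8 h. Hspa9 rose from 12 h in labelled exons, and at 16 h by 0.24 ± 0.059 in labelled and 0.22 ± 0.048 in total exons.

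Dnaja3 (Tid1), the J protein of Hspa9, and Dnajc11, which is bound to the cristae-organising complex, were called in labelled exons from 4 h and 1 h, ahead of Hspd1 and Hspe1. In labelled introns Hspd1, Hspe1 and Dnajc11 were all first called at 20 min and Dnaja3 at 1.5 h, so that order was not seen there. The 4 h call of Dnaja3 was lost without 0 min replicate 2 (adjusted p = 0.0581) and the 1 h call of Dnajc11 without 0 min replicate 2 (adjusted p = 0.0558) or 1 h replicate 1 (adjusted p = 0.0662). Both calls also missed the threshold without further scaling (adjusted p = 0.0824 and 0.0718) and with RPKM values, likewise not scaled further (adjusted p = 0.0755 and 0.0700). The call of Dnajc11 was lost with library sums too (adjusted p = 0.0527). Dnajc11 had labelled exon values of 1515, 1381 and 1427 at 0 min and 2126, 2116 and 2038 at 4 h, a log2 change of 0.54 ± 0.062 (adjusted p = 1.29e-08), and 0.40 ± 0.062 at 16 h. Dnaja3 changed by 0.45 ± 0.079 at 16 h in labelled and 0.43 ± 0.083 in total exons, and its exons share 153 bases with Coro7 and 160 with Vasn. Dnajc15 and Dnajc19, relatives of a subunit of the import motor, were not called at 16 h (-0.22 ± 0.22 and -0.036 ± 0.097). Dnajc4 was lower in total exons, with -0.53 ± 0.12, and had a labelled change of 0.13 ± 0.22 that was not called. Of 14 listed mitochondrial folding and protease genes outside the chosen families, 8 were higher and 1 lower at 16 h in labelled exons. The shares of all genes there were 22.7% and 21.6%, and the median log2 change of the listed genes was 0.26. In total exons, beside 26.3% and 29.6% of all genes, 8 of the listed genes were higher and 2 lower. Those in labelled exons with the smallest p-values were Phb2, a prohibitin, at 0.72 ± 0.066, Clpp, a matrix protease, at 0.86 ± 0.098 and Clpb, a disaggregase, at 0.57 ± 0.082.

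The heat shock factors moved less than many chaperones. Labelled introns of Hsf1 were higher by 0.55 ± 0.061 at 20 min (adjusted p = 2.03e-08) and by 0.11 ± 0.061 at 16 h, which was not called. In total introns Hsf1 was called higher at 9 times, first at 20 min and also at 16 h. That 16 h call was lost without 0 min replicate 1 (adjusted p = 0.0999) or 2 (adjusted p = 0.0879). It was also lost without 16 h replicate 1 (adjusted p = 0.0698) or 3 (adjusted p = 0.0806). Its total exon values were 3018, 3206 and 3043 at 0 min and 3867, 3789 and 3772 at 16 h, which did not overlap, a log2 change of 0.30 ± 0.059 (adjusted p = 6.68e-05). The labelled exon change at 16 h, 0.16 ± 0.078, was not called (adjusted p = 0.0966) but passed the test without 0 min replicate 1 (adjusted p = 0.0207). Hsf2 was called in labelled exons at 12 h (0.29 ± 0.084) and not at 16 h (0.14 ± 0.084). Of 8 genes listed for heat shock regulation outside the chosen families, 1 was higher and 2 lower at 16 h in labelled exons. The list also holds genes with other roles, such as Serpinh1. The shares of all genes there were 22.7% and 21.6%, and the median log2 change of the listed genes was -0.12. In total exons, beside 26.3% and 29.6% of all genes, 1 listed gene was higher and 3 were lower. In labelled exons Nudc (0.50 ± 0.089) was higher, and the collagen chaperone Serpinh1 (-0.74 ± 0.07) and Vcp (-0.15 ± 0.059) were lower.

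Genes that carry a chaperone-like name without being chaperones held the largest fall at 16 h in labelled exons. Hspg2 encodes perlecan, a heparan sulfate proteoglycan of the extracellular matrix. Its labelled exon values were 12529.6, 10343 and 13224 at 0 min and 6091, 7289.7 and 6985 at 16 h, groups that did not overlap, a log2 change of -0.82 ± 0.091 (adjusted p = 2.54e-09). In total exons the change was -0.37 ± 0.19 and was not called (adjusted p = 0.0933), and the difference between labelled and total change did not pass the test (adjusted p = 0.564). Hspbap1 was higher at 1 h by 0.36 ± 0.088 and lower at 16 h, with -0.44 ± 0.088, in labelled exons. Hspb11 encodes an intraflagellar transport protein, and its labelled introns changed by -0.90 ± 0.14 at 1 h (adjusted p = 2.51e-06) while its labelled exons, with -0.017 ± 0.098, were not called. Of the members that could not be placed, Dnajc27, a small GTPase with a J domain, rose by 0.52 ± 0.086 in labelled and 0.44 ± 0.068 in total exons. Dnajc13 (RME-8), a J protein of endosomes, was called lower with -0.24 ± 0.079, a call lost without 0 min replicate 2 (adjusted p = 0.112) or 16 h replicate 1 (adjusted p = 0.0552). Hspa12b, with -0.28 ± 0.17, and the small heat shock proteins Hspb7 and Hspb8, with 0.43 ± 0.30 and -0.019 ± 0.081, were not called at 16 h.

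Intron and exon signals were then compared within labelled RNA by the first time at which each was called higher. Of 36 members that were higher at some time in both, 29 were first called in introns, 6 at the same time and 1 first in exons. Among all 3495 such genes 70.4% were first called in introns, so the members' share of 80.6% is a description beside a high background. A first call depends on the precision of each measure as well as on timing, and intron sums were larger than exon sums. The order of calls therefore cannot tell an earlier change from an easier call. The log2 ratio of intron to exon value at 30 min, a test added after seeing the data, was higher for 14 members and lower for 5, beside 8.81% and 5.93% of all genes. Fkbp4 had a ratio change of 1.05 ± 0.11 (adjusted p = 5.25e-07), Bag1 of 0.93 ± 0.086 (adjusted p = 1.32e-07) and Pfdn2 of 0.68 ± 0.097 (adjusted p = 3.41e-05). The ratio was lower in Dnajc10, with -0.45 ± 0.09, and in Hspb11, with -0.79 ± 0.16. Without further scaling the split was 13 higher and 2 lower and the median of all genes was 0.11 in place of -0.017, and with library sums the split was 11 and 7. The 19 calls became 10 with RPKM values, 9 when only the 30 min and 0 min libraries entered, and 12 without 30 min replicate 3. Counts of all genes under these settings are not given here, so these splits and counts cannot be read against them.

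The same was asked of labelled and total exons. Of 35 members that were higher at some time in both, 19 were first called in labelled exons, 14 at the same time and 2 in total exons, beside 62.9% of 3174 such genes that were first called in labelled exons. This order too depends on the precision of each measure as well as on timing.

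The change in labelled exons was finally set against that in total exons at 16 h. No member differed by the interaction over all 66 libraries in limma. Among all genes 0.201% had a larger and 0.131% a smaller change in labelled RNA. At an unadjusted p under 0.05 there were 9 members. The share of all genes at that threshold was not worked out, so the 9 are not read as a result. Dnajc3 had the smallest p, with a difference of 0.39 ± 0.11 (adjusted p = 0.0935). It passed the test with the replicate number as a block (adjusted p = 0.0377), with RPKM values (adjusted p = 0.0332), and without labelled 16 h replicate 3 (adjusted p = 0.0385), total 0 min replicate 3 (adjusted p = 0.0441) or total 16 h replicate 2 (adjusted p = 0.0409).

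**Figure D5:**
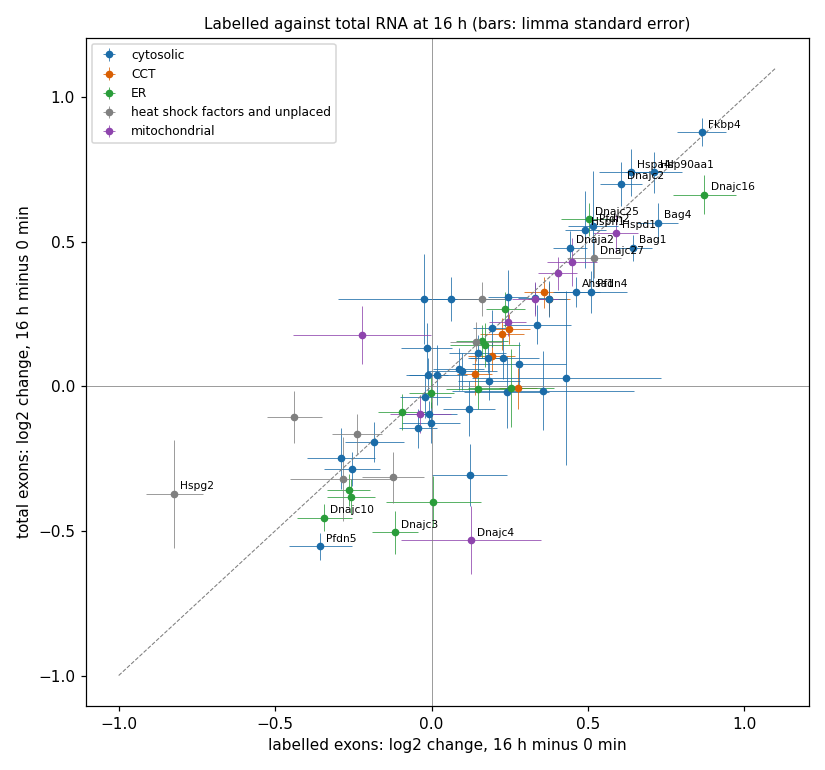
Log2 change from 0 min to 16 h in labelled exons (horizontal axis) and total exons (vertical axis) for the 78 members, coloured by location. Bars are limma standard errors and the dashed line marks equal change; Fkbp4 stands at the upper right with 0.86 and 0.88, and Hspg2 at the far left with -0.82 and -0.37.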

How the data were processed

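Labelled and total RNA of 33 libraries each was measured over exons and introns of 11513 genes. The authors deposited 4 tables whose whole numbers behave as rescaled counts and were treated as a score, and 4 tables of RPKM values, which are the same numbers times a constant per gene, as found from the values. Submitters' processing notes name TopHat and TopHat2 2.0.8 and the build mm9, and how reads were counted and rescaled is not given in these sources. Because the numbers are rescaled, no test that needs raw reads was used, and read depth is unknown. Of the tables' genes 15 have no symbol.

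The scores were rescaled by a trimmed mean of log ratios (30% of ratios and 5% of levels trimmed), filtered at 10 or more in 3 or more libraries of a table, and tested as log2(value + 1) with limma 3.58.1 (R 4.3.3, two-sided, variance trend, 1 mean per time, Benjamini-Hochberg over all genes kept, adjusted p under 0.05), a method tested on simulated data. Fold changes on this scale understate those of low genes. Labelled and total changes were compared by an interaction over 66 libraries. The members, partner lists and markers were chosen with earlier results of these data known. The named-gene rule was all members, and up to 3 genes of a partner list by smallest p at 16 h in labelled exons. The intron counts at 10 and 20 min, the intron to exon ratio and the longer heat shock element were added after seeing the data. Positions are from GENCODE M1 (mm9), found for 77 members, and promoters from RefSeq (GRCm38.p6). The exons of 18 members share bases with another protein-coding gene, among them Cct7, Cct8, Pfdn2, Dnajc14 (1559 bases) and Dnaja4 (1581 bases). Cct3, Dnaja1, Hspa9 and Hspe1 have named pseudogenes. The values of all these members are less certain.

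Same-numbered total exon libraries of 0 min and 4 h deviated together (correlations 0.178, 0.186 and 0.123 for replicates 1, 2 and 3), which met the rule for pairing there. Those of 4 h and 16 h did so too (0.151, 0.187 and 0.149), a pair not compared in total exons. Alternatives were library sums or no further scaling, a pseudocount of 8, RPKM values, no filter or a minimum of 50, the replicate block, only the groups compared, and leaving out each library. RPKM values entered as log2(RPKM + 1) without further scaling, so this setting and the one without further scaling are not separate checks.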

Additional observations from a re-analysis of the deposited data

How the results depend on the processing

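Counts of called members, both directions summed, moved by at most 1.5 times under every alternative run, except for the labelled against total comparison and the intron to exon ratio. The count of members that differed between labelled and total exons at 16 h went from 0 to 1 (Dnajc3) with RPKM values and with the replicate block, and ranged from 0 to 1 when single libraries were left out. The ratio count of 19 became 10 with RPKM values and 9 when only the groups compared entered the fit, and ranged from 12 to 20 when single libraries were left out. Counts of all genes for the ratio under these settings are not given here. Small changes that were not called changed sign: Hspa5 in labelled exons became 0.018 with library sums and ranged from -0.053 to 0.077 when single libraries were left out. Cct2 in total exons became 0.030 with library sums, 0.0012 without further scaling, 0.0015 with RPKM values and ranged from -0.046 to 0.021 when single libraries were left out. Hspa5 in total exons became 0.014 with library sums and ranged from -0.083 to 0.020 when single libraries were left out. The cause was not tested.

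Counts in a single direction moved further with the scaling. With library sums, lower members in labelled exons at 1 h went from 3 to 6, higher members between 4 h and 16 h from 24 to 37, and lower members in labelled introns at 16 h from 8 to 5. Without further scaling, lower members in total exons at 4 h went from 9 to 14. Counts of all genes under these settings are not given here for labelled introns at 16 h or for total exons at 4 h.

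Leaving out single libraries gave 37 to 41 called members in labelled exons and 40 to 44 in total exons at 16 h, 12 to 17 in labelled exons at 1 h and 21 to 28 between 4 h and 16 h. Of the 42 calls in labelled exons at 16 h, 33 held in every alternative run, as did 35 of 45 in total exons. For the rule that pairs libraries, 18 of 33 labelled and 27 of 33 total libraries deviated most like a library of their own number. The replicate block gave 42 calls in labelled exons and 46 in total exons at 16 h, 28 (15 higher and 13 lower) in place of 22 in total exons at 4 h, and 32 in place of 26 between 4 h and 16 h. It ended the calls of Dnajc12 in labelled exons at 4 h (adjusted p = 0.0502) and of Hspa14 in labelled introns at 16 h (adjusted p = 0.0502), and no other call of a member in these comparisons. As read depth is unknown, no limit of detection can be given for the lowest members, such as Hspb7.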
